A study of Mus musculus with 16 samples.

Results

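The thioredoxin-interacting protein gene Txnip and its relatives Arrdc1, Arrdc2, Arrdc3 and Arrdc4 are 5 of the 55385 genes in the count table, and encode the α-arrestins described here. All 5 passed the filter on low counts. They were selected by gene identifier because their levels in fasting and fed mice were already known to differ, so their fasting changes are given as descriptions without a test. The data are short-read RNA-Seq libraries from 8 organs of male C57BL/6 mice, which were bought at 12 weeks of age and kept on a standard chow diet. Fed mice had continuous access to food and fasting mice had food withdrawn for 24 h. For each organ the tissue of the 3 mice of a treatment was pooled before RNA extraction, so that lung, kidney, spleen, heart, liver, muscle and both adipose tissues are each represented by 1 fed and 1 fasting library. The mice carried no genetic change named in the sample descriptions, and both treatments shared strain, sex and diet.

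Each library held 14245178 to 36069968 counts, and 3 counts correspond to 0.0832 to 0.211 CPM (counts scaled to the library total). Every organ carried the highest summed level of its own marker genes among the 8 organs. Some markers of other cells differed between the paired pools. In white adipose 5 B cell genes summed to 346 CPM fed and 82.7 CPM fasting (1 of 5 higher in fasting), and 4 kidney tubule genes to 64.7 and 744 CPM (3 of 4 higher). In spleen 4 erythroid genes summed to 1289 and 3231 CPM (4 of 4 higher), and 5 pancreatic acinar genes to 396 and 11.6 CPM (0 of 5 higher). In brown adipose 5 skeletal muscle fibre genes summed to 2293 and 1064 CPM, and in lung 5 cardiomyocyte genes to 968 and 483 CPM (0 of 5 higher in either). In heart 5 hepatocyte genes summed to 23.9 and 84.1 CPM (5 of 5 higher), whereas 1 of 5 adipocyte genes accounted for the difference between 374 and 832 CPM. In liver 4 brown adipocyte genes summed to 540 and 241 CPM (1 of 4 higher). The part of these cells in the results below was not tested. In bulk tissue, fewer cells of a type and less RNA per cell cannot be told apart.

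Arrestins are cytosolic adaptors with a curved, paired-sheet fold. The α-arrestins carry PPxY motifs through which they recruit ubiquitin ligases of the NEDD4 family to membrane proteins, and the cargo is then ubiquitinated and internalised. Txnip is the only member that also binds thioredoxin, and it is known for limiting glucose uptake by promoting the internalisation of the glucose transporters GLUT1 (Slc2a1) and GLUT4 (Slc2a4). Its promoter is a textbook target of the glucose-sensing factors MondoA (Mlxip) and ChREBP (Mlxipl), which bind carbohydrate response elements together with Mlx.

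All 5 genes matched an entry in the RefSeq promoter sequences (GRCm38.p6), which cover 250 bases before to 50 bases after a transcription start. The promoters of the genes whose levels differed most with fasting and that of Arrdc4, the member most like Txnip in being known as a MondoA target, are shown 5′ to 3′ on the strand of the gene. Capitals mark matches on either strand to the core letters of an E-box (CACGTG), of a carbohydrate response element (CACGAG), of a FoxO element (GTAAACA) or of a glucocorticoid receptor element (AGAACA).
Txnip, chr3:96557707-96558006, plus strand: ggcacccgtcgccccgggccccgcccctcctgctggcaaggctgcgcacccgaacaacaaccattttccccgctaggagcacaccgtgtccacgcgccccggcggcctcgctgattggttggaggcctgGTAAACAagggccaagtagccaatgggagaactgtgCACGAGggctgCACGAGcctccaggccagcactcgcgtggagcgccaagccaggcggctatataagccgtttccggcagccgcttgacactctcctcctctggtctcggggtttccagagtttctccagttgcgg
Arrdc2, chr8:70839671-70839970, minus strand: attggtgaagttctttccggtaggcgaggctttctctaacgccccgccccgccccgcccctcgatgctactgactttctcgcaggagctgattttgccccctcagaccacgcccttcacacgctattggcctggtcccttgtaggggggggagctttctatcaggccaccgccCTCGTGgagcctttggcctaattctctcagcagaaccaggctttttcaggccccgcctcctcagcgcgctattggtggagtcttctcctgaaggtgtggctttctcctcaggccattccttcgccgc
Arrdc3, chr13:80883134-80883433, plus strand: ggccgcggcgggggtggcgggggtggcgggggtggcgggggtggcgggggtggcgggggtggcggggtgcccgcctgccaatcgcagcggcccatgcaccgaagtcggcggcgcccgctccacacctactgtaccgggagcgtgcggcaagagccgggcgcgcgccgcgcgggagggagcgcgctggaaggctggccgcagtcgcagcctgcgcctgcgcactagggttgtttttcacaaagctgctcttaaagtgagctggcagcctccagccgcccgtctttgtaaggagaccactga
Arrdc4, chr7:68749189-68749488, minus strand: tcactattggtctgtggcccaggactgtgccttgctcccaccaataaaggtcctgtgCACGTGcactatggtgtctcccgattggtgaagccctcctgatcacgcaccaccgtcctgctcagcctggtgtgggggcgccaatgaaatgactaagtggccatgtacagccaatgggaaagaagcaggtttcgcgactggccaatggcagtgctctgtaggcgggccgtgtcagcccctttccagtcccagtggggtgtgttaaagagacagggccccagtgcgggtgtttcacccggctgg

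The Txnip promoter held a pair of CACGAG copies, from base -85 to -80 and from -74 to -69 relative to the start, separated by 5 bases. This arrangement, searched on both strands as CACGNG, then any 5 bases, then CACGNG, was present in 16 of 32851 promoters of the same length (0.0487%), whereas CACGAG alone was present in 6.47% of them. Txnip also held GTAAACA from -121 to -115, a match found in 3.65% of promoters. The Arrdc2 promoter held 1 copy of CACGAG on the opposite strand, from -77 to -72, and the Arrdc1 promoter held 2 on the opposite strand. The Arrdc4 promoter held CACGTG from -193 to -188, a match found in 7.15% of promoters. None of the 5 genes had AGAACA in any of its windows, a match found in 19.0% of promoters, and none of the 3 windows listed for Arrdc3 held any of the letters named so far. The letters were chosen with the Txnip promoter in view. CCAAT, the core of the NF-Y element, was present in 37.4% of promoters, and it occurred 6 times in that of Arrdc4, 3 times in that of Arrdc2 2 times in that of Txnip and 1 time in the Arrdc3 promoter shown, on either strand.

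Txnip (ENSMUSG00000038393.14) lies on the plus strand at chr3:96557957-96561883 of GRCm38, and its longest coding transcript has 8 exons and 397 codons. Gm15441, a gene on the opposite strand, shares 606 of its 3123 counted exon bases, and the counts of both genes cannot be told apart there if strand was not used. Txnip was the most abundant member in 15 of 16 libraries. In muscle its level was 847 CPM under fed and 1474 CPM under fasting conditions, and in liver it was 89.2 and 241 CPM. White adipose held 1390 CPM fed and 3451 CPM fasting, and brown adipose 1549 and 3269 CPM. Heart, at 447 CPM fed and 2260 CPM fasting, had the widest separation as a ratio. Spleen held 553 and 1139 CPM, kidney 385 and 1178 CPM, and lung 821 and 1903 CPM. The fasting library was the higher one in 8 of 8 tissues, and liver held the lowest level under either treatment.

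The log2(FC) of Txnip between fasting and fed libraries, with a 95% interval that covers counting error only, was lowest in muscle at 0.80 (0.78 to 0.82) and highest in heart at 2.34 (2.30 to 2.37). It was 1.04 in spleen, 1.08 in brown adipose, 1.21 in lung, 1.31 in white adipose, 1.43 in liver and 1.61 in kidney. All 8 values therefore lay above 0.5, the fold threshold used by the study. Among genes with at least 1 CPM in either library of each tissue, 24 of 11576 (0.207%) lay above 0.5 in all 8 tissues, and since this contrast selected the genes nothing is read from that share. Above 0, without a fold threshold, 2.89% lay in all 8 tissues. With TMM factors, a scaling that sets most genes of each library level, the values ran from 0.89 to 2.39.

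**Figure D1:**
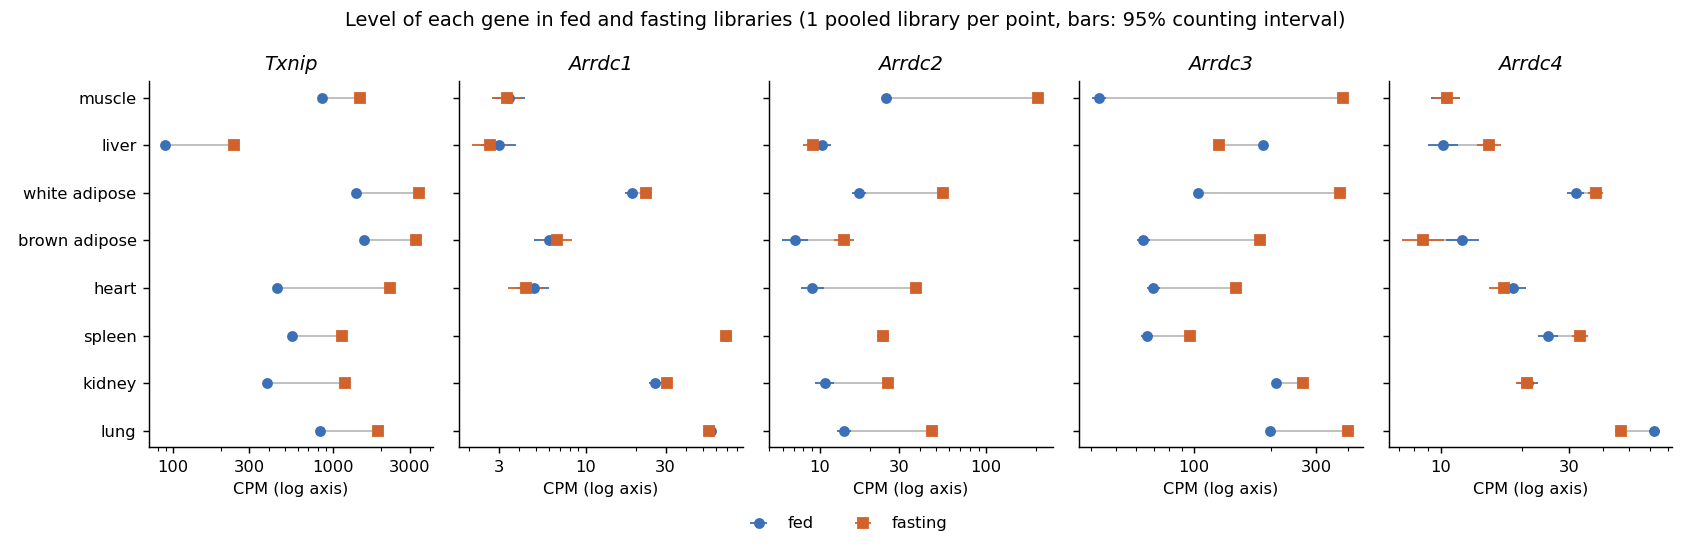
Level of each gene in CPM on a logarithmic axis for 8 tissues, with circles for the fed library and squares for the fasting library of each tissue and bars for the 95% counting interval. The squares lie to the right of the circles in 8 of 8 tissues for Txnip and in 7 of 8 for Arrdc3, whereas they lie close together for Arrdc1.

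Arrdc2 (ENSMUSG00000002910.11, chr8:70835129-70839720, minus strand) and Arrdc3 (ENSMUSG00000074794.10, chr13:80883384-80896042, plus strand) encode adaptors that have been linked to the trafficking of G protein-coupled receptors. Arrdc3 is known for its action on β-adrenergic receptors. Arrdc2 stood at 25.2 CPM in fed and 204 CPM in fasting muscle, at 17.3 and 54.9 CPM in white adipose, and at 7.17 and 14.04 CPM in brown adipose. In heart it stood at 9.06 and 37.7 CPM, in kidney at 10.7 and 25.7 CPM, and in lung at 13.97 and 47.3 CPM. Liver, at 10.3 and 9.13 CPM, and spleen, at 542 fed and 668 fasting counts or 23.9 CPM in the fed library, were the tissues in which the libraries hardly differed.

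For Arrdc2 the log2(FC) was 3.02 (2.90 to 3.14) in muscle, 2.06 (1.80 to 2.32) in heart, 1.76 in lung, 1.67 in white adipose, 1.26 in kidney and 0.97 in brown adipose. It was -0.17 (-0.44 to 0.10) in liver and 0.00 (-0.16 to 0.17) in spleen. Arrdc2 thus lay above 0.5 in 6 of 8 tissues, and the counting interval included 0 in the other two. Of genes at 1 CPM in each tissue, 0.838% lay above 0.5 in at least 6 of 8, a share given as background for Arrdc2 and Arrdc3 alike.

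Arrdc3 stood at 42.8 CPM in fed and 381 CPM in fasting muscle, which on library totals was the lowest fed level of any tissue and the second highest fasting level. With TMM factors the fed level was lowest in spleen, with muscle between white adipose and heart, and the fasting level was highest in muscle. It stood at 104 and 371 CPM in white adipose, 63.9 and 181 CPM in brown adipose, and 69.8 and 146 CPM in heart. In spleen it stood at 65.9 and 97.0 CPM, in kidney at 209 and 268 CPM, and in lung at 199 and 398 CPM. Liver was the exception, with 186 CPM in the fed and 126 CPM in the fasting library.

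The log2(FC) of Arrdc3 was 3.16 (3.06 to 3.25) in muscle, 1.83 in white adipose, 1.501 in brown adipose, 1.07 in heart, 1.003 in lung, 0.56 (0.47 to 0.65) in spleen and 0.36 (0.30 to 0.41) in kidney. In liver it was -0.57 (-0.64 to -0.50), and this value was -0.44 with TMM factors, which keeps its sign but not its place beyond the fold threshold. Summed over 5 genes, hepatocyte markers stood at 95541 CPM in the fed and at 87704 CPM in the fasting liver library, a log2 ratio of -0.12 (2 of 5 higher in fasting).

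Muscle was the tissue in which Arrdc2 and Arrdc3 differed most and Txnip least. The summed skeletal muscle fibre markers were level there, at 128686 CPM fed and 128575 CPM fasting, with 1 of 5 genes higher in fasting. Across the 8 tissues the log2(FC) values of Arrdc2 and Arrdc3, with a pseudocount of 1 CPM, were correlated at r = 0.83 (Spearman's rho 0.69, n = 8 tissues), whereas those of Txnip were correlated at r = 0.01 with Arrdc2 and r = -0.39 with Arrdc3. The points share their libraries and their depth, and the coefficients are given as descriptions.

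Arrdc1 and Arrdc4 stayed closest to their fed levels. Arrdc1 (ENSMUSG00000026972.15, chr2:24925352-24935252, minus strand) is known for driving the budding of small vesicles at the plasma membrane with the ESCRT protein Tsg101. It stood at 69.2 CPM in fed and 68.6 CPM in fasting spleen, 56.0 and 54.9 CPM in lung, 26.02 and 30.4 CPM in kidney, and 18.8 and 23.0 CPM in white adipose. Brown adipose held 6.02 and 6.74 CPM, heart 4.88 and 4.39 CPM, muscle 3.49 and 3.36 CPM, and liver 3.04 and 2.68 CPM. The log2(FC) ran from -0.18 in liver to 0.29 in white adipose, and the counting interval included 0 in 6 of 8 tissues. Arrdc1 was above 0.5 in no tissue, as were 69.9% of genes. The smallest values changed sign with the scaling: 3 tissues were above 0 with library totals and 6 with TMM factors.

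Arrdc4 (ENSMUSG00000042659.15, chr7:68736995-68749241, minus strand), an arrestin that like Txnip is known to restrain glucose uptake, showed small differences of either sign. It stood at 62.0 CPM in fed and 46.6 CPM in fasting lung, 31.7 and 37.6 CPM in white adipose, 25.1 and 32.9 CPM in spleen, and 21.1 and 20.8 CPM in kidney. Heart held 18.6 and 17.2 CPM, brown adipose 12.04 and 8.63 CPM, muscle 10.5 and 10.6 CPM, and liver 10.2 and 15.1 CPM. Its log2(FC) was 0.56 (0.32 to 0.80) in liver, the 1 tissue beyond the fold threshold, and 0.39 in spleen, 0.24 in white adipose and 0.02 in muscle. It was -0.02 in kidney, -0.11 in heart, -0.41 (-0.51 to -0.32) in lung and -0.48 (-0.82 to -0.15) in brown adipose. With TMM factors the kidney value turned to 0.02. Liver was thus the tissue where Arrdc4 was higher and Arrdc3 lower in the fasting library.

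**Figure D2:**
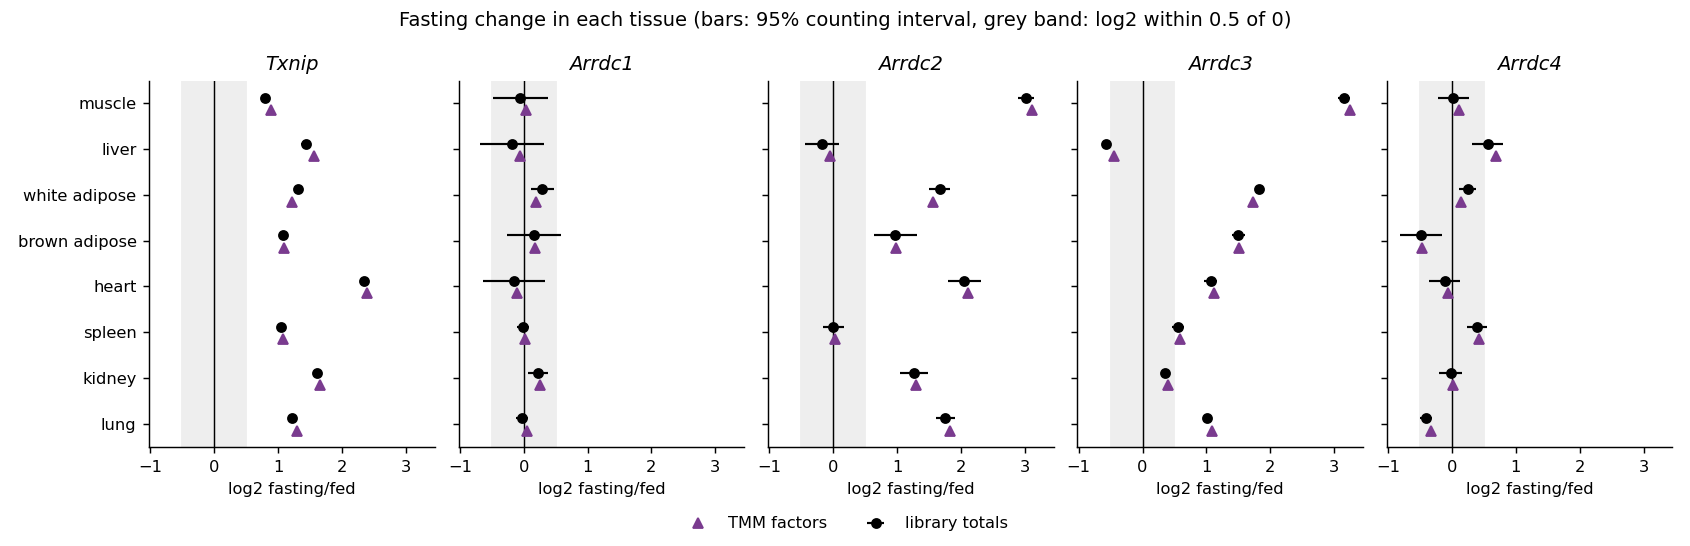
The log2(FC) between fasting and fed libraries of each gene in 8 tissues, as circles with 95% counting intervals for library totals and as triangles for TMM factors. The circles lie beyond the grey band of 0.5 around 0 in 8 of 8 tissues for Txnip, in 6 above it for Arrdc2 and Arrdc3, in 1 for Arrdc4 and in none for Arrdc1.

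Counted by tissue, 3 of the 5 genes lay above 0.5 in muscle, white adipose, brown adipose, heart and lung, and 2 in liver, spleen and kidney. Of all genes with at least 1 CPM in either library, the share above 0.5 was 9.39% in muscle, 9.32% in liver, 22.5% in white adipose, 12.3% in brown adipose, 10.1% in heart, 5.99% in spleen, 6.56% in kidney and 5.27% in lung. Only Arrdc3 in liver lay below -0.5, where 19.7% of genes did. The share of genes below -0.5 was 20.3% in muscle, 10.9% in white adipose, 17.8% in brown adipose, 14.8% in heart, 4.47% in spleen, 9.08% in kidney and 12.3% in lung. The values that passed the fold threshold by the least were those of Arrdc3 in spleen and liver and Arrdc4 in liver, and the one that missed it by the least was that of Arrdc4 in brown adipose.

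When the 8 tissues were fitted together with edgeR, with tissue as a block, the fasting effect was 1.39 ± 0.16 (log2, SE) for Txnip, 1.38 ± 0.32 for Arrdc2 and 1.13 ± 0.33 for Arrdc3. It was 0.08 ± 0.07 for Arrdc1 and 0.07 ± 0.12 for Arrdc4. Txnip and Arrdc2 had nearly equal means, but Arrdc2 and Arrdc3 had larger SEs. Leaving out each tissue in turn gave 1.25 to 1.45 for Txnip, 1.11 to 1.58 for Arrdc2 and 0.85 to 1.36 for Arrdc3, the lowest values of the last pair being those without muscle. All genes tested had a median of -0.01.

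To compare members with each other, counts were divided by gene length and scaled to a common library total (TPM). Txnip made up 43.8% of the summed TPM of the 5 genes in fed liver and 70.2% to 96.5% in the other 7 fed tissues. Arrdc3 took 45.6% of the sum in fed liver and 19.1% in fasting liver, where the share of Txnip was 73.6%. In muscle the share of Txnip was 93.6% under fed and 78.7% under fasting conditions, as the TPM of the other 4 members together went from 69.6 to 488 while that of Txnip went from 1014 to 1799. In heart, spleen, kidney, lung and liver the share of Txnip was higher in the fasting library, and in white adipose (92.3% and 92.1%) and brown adipose (96.5% in both) it was nearly level. The summed TPM of the family was higher in the fasting library in 8 of 8 tissues, from 1.70-fold in liver to 4.67-fold in heart.

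**Figure D3:**
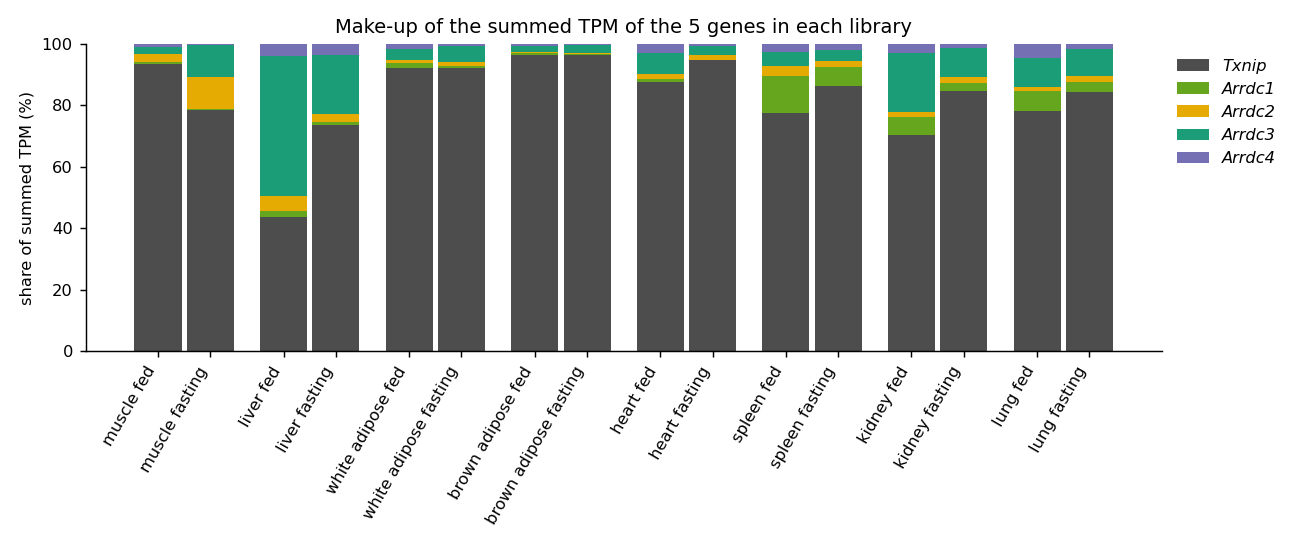
Share of each gene in the summed TPM of the 5 genes, in percent, as stacked bars for the fed and the fasting library of 8 tissues. Txnip takes most of the bar in 15 of 16 libraries, and in fed liver Arrdc3 (45.6%) takes slightly more than Txnip (43.8%).

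Ranked among all genes by TPM, Txnip stood 52nd in fed and 22nd in fasting white adipose, 27th in fasting brown adipose and 36th in fasting lung. In heart its rank was 252 fed and 44 fasting, and in liver it was 1340 fed and 551 fasting. Arrdc2 moved in muscle from rank 3283 to 429 and Arrdc3 from 3683 to 450.

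Levels were compared across tissues in the same edgeR fit, in which the fed and the fasting library of a tissue are its 2 observations. Each tissue level thus averages in a fasting library, whose change took part in the selection of the genes. For Txnip, Arrdc2 and Arrdc3, the members with the largest mean fasting changes, the values are therefore given without a test. For Txnip the fed levels are given beside them. The adjusted p for any difference between tissues was 3.5e-09 for Arrdc1 and 0.00085 for Arrdc4 (edgeR quasi-likelihood F test, Benjamini-Hochberg). Such a difference was called for 96.8% of all genes tested. The tissues come from the same 2 pools of mice, so these p-values do not measure the spread between animals. With 1 library per tissue and treatment, the error of the fit (7 residual degrees of freedom) rests on how unevenly the fasting change runs over the tissues. A gene whose fasting change varies little over tissues therefore gets a small SE.

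Against the mean of the other 7 tissues, with TMM factors, Txnip was higher in brown adipose by 1.38 ± 0.21 (log2, SE), in muscle by 1.33 ± 0.21 and in white adipose by 0.92 ± 0.22. It was lower in liver, at -2.32 ± 0.28, in spleen at -0.92 ± 0.25 and in kidney at -0.64 ± 0.25. Heart lay at 0.38 ± 0.23 and lung at -0.12 ± 0.24. In the fed libraries alone, the TMM-scaled levels of Txnip ran from 133 CPM in liver to 1516 CPM in muscle, with brown and white adipose next to muscle and with kidney and spleen next to liver. Of all genes tested, 31.8% were called higher and 33.5% lower in muscle, 32.2% and 32.3% in liver, 26.5% and 25.5% in white adipose, and 26.7% and 25.3% in brown adipose. These shares were 26.9% and 28.5% in heart, 36.5% and 37.4% in spleen, 30.2% and 26.3% in kidney, and 30.6% and 30.3% in lung. The descending order of Txnip was brown adipose, muscle, white adipose, heart, lung, kidney, spleen and liver. The widest step between neighbours was the last, from spleen to liver (1.22 ± 0.31).

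Arrdc1 was called in 8 of 8 contrasts. It was higher in spleen (2.14 ± 0.08), lung (1.84 ± 0.08), kidney (1.22 ± 0.09) and white adipose (0.34 ± 0.09, edgeR adjusted p = 0.012), and lower in liver (-1.71 ± 0.12), heart (-1.49 ± 0.12), brown adipose (-1.20 ± 0.11) and muscle (-1.14 ± 0.11). The steps from lung to kidney, kidney to white adipose and white adipose to muscle passed the edgeR test between neighbours in descending order. The step from spleen to lung (edgeR adjusted p = 0.092) and those among muscle, brown adipose, heart and liver did not. Muscle was nonetheless above liver, the ends of that last run, by 0.50 ± 0.15 (adjusted p = 0.011).

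For Arrdc2 the value of muscle was 3.23 ± 0.37 and that of brown adipose -1.39 ± 0.53, and the other 6 lay between -0.59 and 0.05. In the fed libraries alone, its TMM-scaled level was also highest in muscle (45.1 CPM) and lowest in brown adipose (6.82 CPM). For Arrdc3 the value of muscle was 1.09 ± 0.44 and that of spleen -1.73 ± 0.54. Its TMM-scaled level in muscle was 76.6 CPM fed and 728 CPM fasting, so that the muscle value rested on the fasting library. Spleen held its lowest TMM-scaled level under either treatment, at 43.8 and 65.8 CPM. Arrdc4 was higher in lung (1.03 ± 0.16, adjusted p = 0.00024) and lower in brown adipose (-1.17 ± 0.20, adjusted p = 0.00066).

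These tissue contrasts depend on the scaling. With library totals in place of TMM factors the median gene moved to -1.11 in muscle, -0.76 in liver, 0.46 in white adipose, 0.62 in spleen and 0.57 in lung. On that scale the muscle value was 0.32 for Txnip, 0.06 for Arrdc3 and 2.197 for Arrdc2. The lung value of Txnip turned from -0.12 to 0.48, and its values in spleen and kidney were -0.26 and -0.54. Arrdc4 gained calls in muscle (-1.08), liver (-0.77), white adipose (0.88) and spleen (0.59). The values of Txnip in liver (-3.06), brown adipose (1.45) and white adipose (1.40) kept their sign, and all 8 of Arrdc1 were called on either scale. Without the treatment term, the value of Txnip was -2.27 in liver and 1.31 in brown adipose, and no test is read from its values in either fit.

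**Figure D4:**
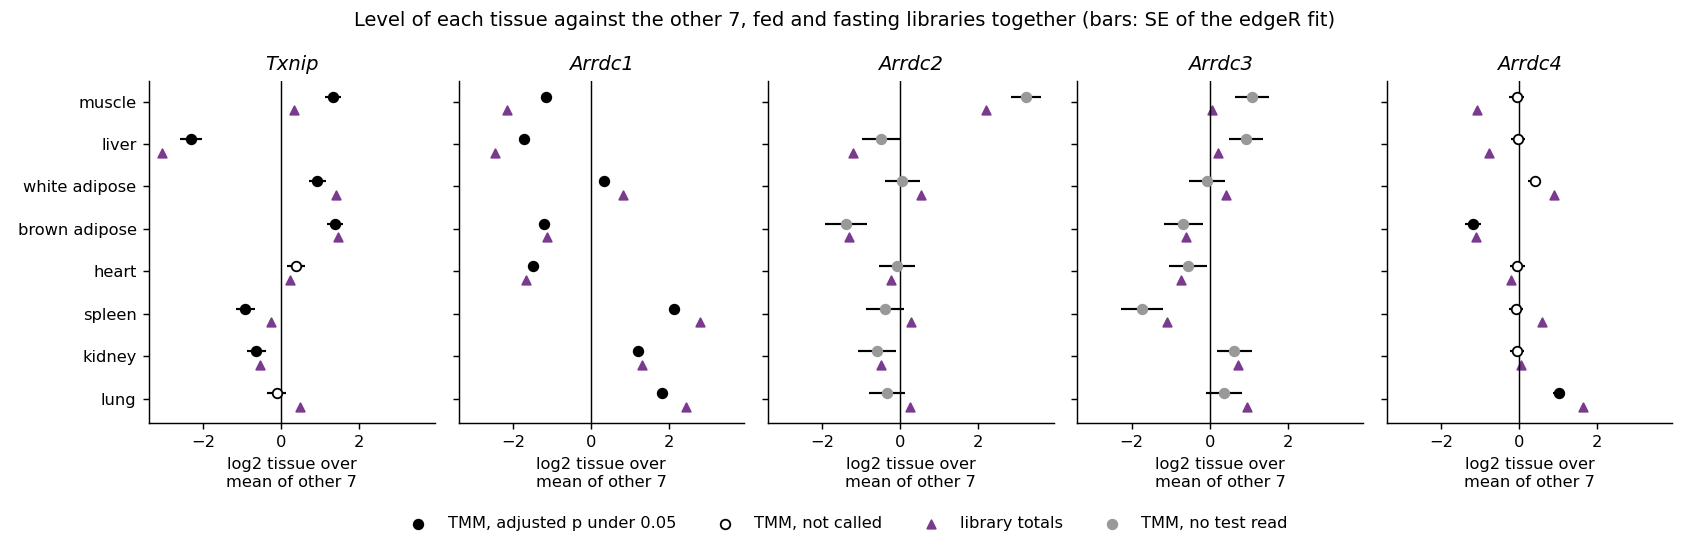
Level of each tissue against the mean of the other 7 in the edgeR fit, log2 with SE bars, black where the adjusted p was under 0.05, open where it was not and grey for Arrdc2 and Arrdc3, for which no test is read, with triangles for library totals. For Txnip no test is read either, whichever fill its circles have. Arrdc1 is black in 8 of 8 tissues and Arrdc2 reaches 3.23 in muscle, while the triangles of muscle and liver lie to the left of the circles for 5 of 5 genes.

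The genes whose levels were most like each member were named from 10792 genes with at least 1 CPM in all 16 libraries, by Pearson's r of log2(CPM + 1). For Txnip these were Polr3gl (r = 0.93), Mapk1ip1 (0.88) and Map3k6 (0.87). Polr3gl, an RNA polymerase III subunit gene, is also the next gene on the chromosome, at chr3:96577872-96594181 on the minus strand, with 15988 bases and no listed gene lying wholly between it and Txnip. For Arrdc1 they were Prkcd (0.99), Ift80 (0.98) and Atxn7 (0.98), and for Arrdc4 Plekhh2 (0.97), Sema3f (0.97) and Rab31 (0.95). For Arrdc2 they were Zfp112 (0.82), Tsc22d3 (0.77) and Cebpd (0.76), of which Tsc22d3 encodes the glucocorticoid-induced leucine zipper protein. For Arrdc3 they were A330023F24Rik (0.79), Atg14 (0.74) and Mafg (0.74).

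By the log2(FC) over the 8 tissues, the genes most like Txnip were Eif1a (r = 0.98), Apob (0.93) and Gm10925 (0.92), with changes of -0.20 to 0.46, -0.41 to 1.46 and -0.33 to 0.31. They are the highest of 10792 genes ranked on 8 points, and heart held the largest change of Txnip (2.34). The ranking is therefore a description only. Among the members, the levels of Arrdc1 and Arrdc4 were the most alike (r = 0.82, n = 16 libraries), and those of Txnip were closest to Arrdc2 (r = 0.50). These coefficients share libraries and scaling, and tissue differences enter all of them.

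The fasting tests given from here on treat the 8 tissues as replicates, although 1 fed and 1 fasting pool of mice gave them all. Their p-values therefore do not measure the spread between mice. The gene lists were chosen with earlier results of these data known, so calls, counts and p-values for list genes are descriptions. Of the 3 glucose-sensing factors, edgeR called 1 higher and 1 lower. Mlxip, which encodes MondoA, rose by 0.51 ± 0.06 (log2, SE; edgeR adjusted p = 0.0032), and was higher in the fasting library in 8 of 8 tissues. Its level was 79.2 CPM in fed and 119.6 CPM in fasting muscle, 78.8 and 122 CPM in white adipose, 62.4 and 88.0 CPM in brown adipose, and 53.7 and 79.5 CPM in heart. It was 175 and 231 CPM in spleen, 97.5 and 136 CPM in lung, 31.0 and 37.7 CPM in kidney, and 16.8 and 20.4 CPM in liver. Of 17296 genes tested, 400 were called higher (2.31%) and 359 lower (2.08%).

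Mlxipl, which encodes ChREBP, decreased by 0.57 ± 0.14 (adjusted p = 0.049, edgeR). It stood at 318 CPM in fed and 124 CPM in fasting liver, 318 and 212 CPM in brown adipose, 106 and 60.1 CPM in white adipose, and 54.6 and 29.8 CPM in muscle. Kidney held 124 and 126 CPM, heart 27.0 and 25.0 CPM, lung 4.72 and 3.44 CPM, and spleen under 1 CPM in either library. The call for Mlxipl was lost when any tissue other than kidney was left out (adjusted p = 0.039 to 0.12 over the 8 fits). Their shared partner Mlx was not called (-0.23 ± 0.08, adjusted p = 0.12), with 27.8 CPM in fed and 25.0 CPM in fasting liver, 23.7 and 16.9 CPM in white adipose, and changes of -0.49 to 0.03 over the tissues.

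None of the 10 ChREBP target genes tested was called, and 6 had an unadjusted p under 0.05 in edgeR, as did 23.8% of all genes tested. Their median effect was 0.18. DESeq2 called 1 of them higher and 3 lower, beside 844 higher (4.88%) and 990 lower (5.72%) of all 17296 genes. Fasn, which encodes fatty acid synthase, had an effect of -1.21 ± 0.33 (adjusted p = 0.062, edgeR) and was lower in the fasting library in 8 of 8 tissues.

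Of the 10 membrane proteins listed as α-arrestin cargo, 2 rose and none fell in edgeR, with a median effect of -0.04. Of all genes tested, 2.31% were called higher and 2.08% lower. An unadjusted p under 0.05 in edgeR was found for 5 of the 10 and for 23.8% of all genes. Insr, the insulin receptor gene, rose by 0.45 ± 0.07 (edgeR adjusted p = 0.015) and was higher in the fasting library in 8 of 8 tissues, from 0.08 in liver to 0.65 in heart. Igf1r rose by 0.59 ± 0.14 (adjusted p = 0.048), and its call was lost with library totals and when any tissue other than kidney was left out (adjusted p = 0.035 to 0.12). The glucose transporter genes were not called, with 0.04 ± 0.11 for Slc2a1 (adjusted p = 0.88) and -0.57 ± 0.21 for Slc2a4 (adjusted p = 0.13).

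Within tissues the 2 transporters differed. Slc2a4 stood at 217 CPM in fed and 63.5 CPM in fasting white adipose, 489 and 241 CPM in brown adipose, 533 and 418 CPM in muscle, and 449 and 321 CPM in heart. In kidney it stood at 32.8 and 25.5 CPM, in lung at 9.61 and 8.34 CPM, and in liver and spleen at no more than 1.35 CPM. Slc2a1 was higher in fasting white adipose (18.2 and 30.8 CPM) and heart (14.5 and 18.3 CPM), and lower in fasting lung (32.2 and 25.0 CPM) and kidney (64.7 and 51.5 CPM). Muscle held 11.96 and 10.02 CPM of Slc2a1, liver 12.4 and 13.1 CPM, brown adipose 8.85 and 8.003 CPM, and spleen 51.0 and 47.5 CPM. White adipose was thus the tissue where the 2 transporters went furthest in opposite directions, at -1.77 for Slc2a4 and 0.76 for Slc2a1.

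None of the 12 thioredoxin and peroxiredoxin genes was called by edgeR and none had an unadjusted p under 0.05, with a median effect of -0.04. DESeq2 called none either. Txn1, the thioredoxin bound by Txnip, had an effect of -0.01 ± 0.08 (adjusted p = 0.94), and its log2(FC) ran from -0.52 in liver (135 CPM fed, 94.1 CPM fasting) to 0.34 in brown adipose (92.4 and 116.6 CPM). In the other 6 tissues Txn1 lay between 27.3 CPM in fed muscle and 213 CPM in fasting kidney and changed by -0.17 to 0.13. Txnrd1, thioredoxin reductase, had an effect of 0.11 ± 0.11 (adjusted p = 0.59) and changes from -0.34 in brown adipose (111 and 88.2 CPM) to 0.62 in muscle (71.0 and 109 CPM). Prdx1 had -0.12 ± 0.07 (adjusted p = 0.34) and Prdx6 0.13 ± 0.15 (adjusted p = 0.65).

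Of 8 NEDD4 family ligase genes tested, Hecw2 rose by 0.55 ± 0.09 (edgeR adjusted p = 0.014), from 139 to 240 CPM in lung, where it was highest, and none fell. The median over the list was 0.13, and 4 of the 8 had an unadjusted p under 0.05 in edgeR, against 23.8% of all genes. For comparison, edgeR called 2.31% of all genes tested higher and 2.08% lower. Of the 7 inflammasome genes, a complex that Txnip is known to bind through Nlrp3, Il1b fell by 1.48 ± 0.30 (edgeR adjusted p = 0.031) and the median was -0.37. None of the 7 was called higher, and 4 had an unadjusted p under 0.05 in edgeR, against 23.8% of all genes. Of all genes tested, 2.08% were called lower. Il1b had 0 counts in both muscle libraries and reached 5 CPM only in spleen (27.8 fed and 12.5 fasting) and lung (19.2 and 2.94), and its call was lost without muscle, liver, brown adipose, heart or lung (adjusted p = 0.042 to 0.066 over the 8 fits). In lung, 4 T cell genes summed to 54.0 CPM fed and 14.8 CPM fasting, 5 B cell genes to 343 and 177 CPM, and 4 macrophage genes to 231 and 196 CPM, with 0 genes of these lists higher in fasting, and the part of these cells in the Il1b value was not tested.

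No gene was called by edgeR among 7 ESCRT genes (2 with an unadjusted p under 0.05, against 23.8% of all genes, median 0.04) or among 6 other genes of the arrestin fold (none under 0.05, median 0.05), and DESeq2 called none in either list. Pdcd6ip had 0.01 ± 0.06 and Vps4b 0.04 ± 0.07, with adjusted p of 0.96 and 0.77 in edgeR. Among the arrestin fold genes Arrb1, β-arrestin 1, had 0.09 ± 0.10 (adjusted p = 0.65) and Vps26a 0.07 ± 0.06 (adjusted p = 0.53). Arrdc5, a further α-arrestin gene, had 0 counts in 16 of 16 libraries, which allows up to 3 counts or 0.211 CPM in the shallowest.

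**Figure D5:**
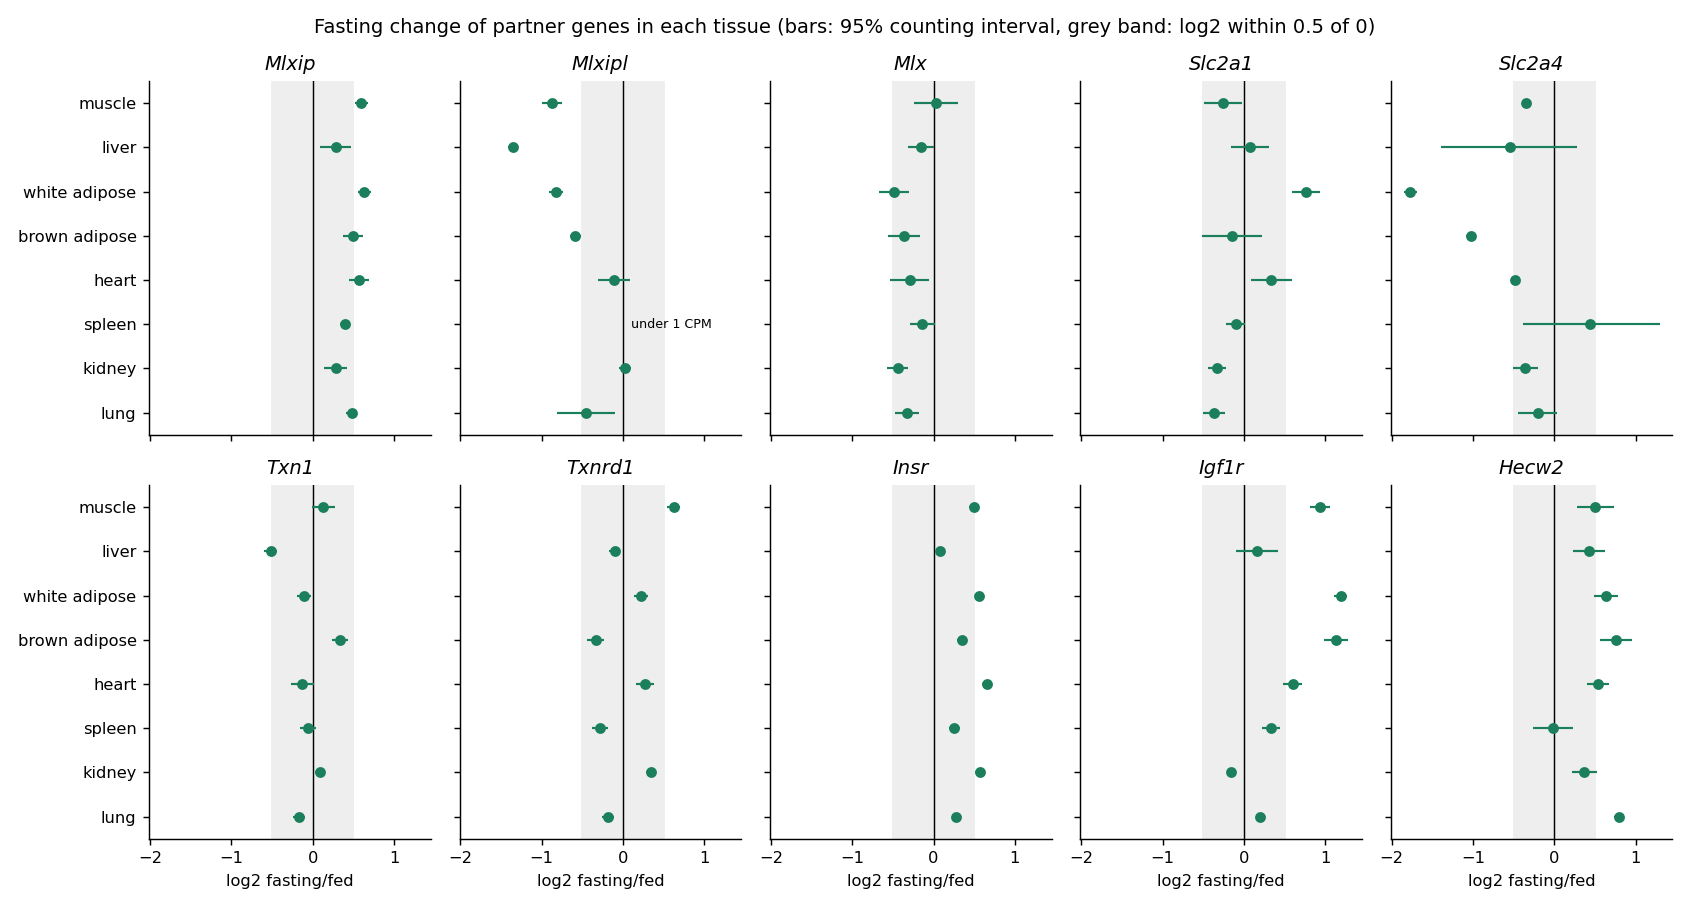
The log2(FC) between fasting and fed libraries of 10 genes that act with the α-arrestins, in 8 tissues, as points with 95% counting intervals, with Mlxipl in spleen marked as under 1 CPM. Mlxip and Insr lie above 0 in 8 of 8 tissues, Slc2a4 lies furthest to the left in white adipose (-1.77), and Txn1 lies on both sides of 0.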

How the data were processed

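The authors deposited raw counts and a gene length. Quality control of the paired 100 bp reads used FastQC 0.11.8 and fastp 0.23.2, alignment used HISAT2 2.2.1.0 with GRCm38, and counting used featureCounts (Subread 2.0) with mouse GENCODE release M24. The kit marked strand, but the strand setting of the counting is not given in the sources used here. Symbols were taken from GENCODE M21 for 55144 of 55385 genes.

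Members and gene lists were chosen with earlier results of these data known, so p-values and counts of calls for list genes are descriptions. The log2(FC) used CPM on library totals with a pseudocount of 0.01 and an exact binomial 95% interval. With 1 library per tissue and treatment no test was made within a tissue. Treatment and tissue effects were fitted with edgeR 4.0.16 (quasi-likelihood, TMM, tissue and treatment as terms, filterByExpr by treatment, 17296 genes, Benjamini-Hochberg), and fits were tested on simulated counts. Neighbouring tissues were compared after the levels had been seen. Alternatives used DESeq2 1.42.0, library totals, other pseudocounts and filters, and each tissue left out. Named genes were the members, the 3 most alike by r, list genes called or otherwise the 2 with the highest mean CPM, and 7 partners. One gene that this rule names is not reported here.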

Additional observations from a re-analysis of the deposited data

Results flagged for a closer look

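Arrdc3 was lower in the fasting liver library (log2(FC) of -0.57, 186 CPM fed and 126 CPM fasting) and above 0.5 in the fasting library of 6 other tissues, among them muscle at 3.16. It was listed because the directions were opposite between tissues. The difference between tissues was not tested, since each tissue had 1 library per treatment.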

How the results depend on the processing

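The tissue block paired the fed and the fasting library of each tissue, and the sample descriptions carry no replicate numbers for a further block. Of 160 alternative values of member changes within tissues, 141 stayed within the counting interval and 19 moved beyond it without changing the sign of a change beyond 0.5. Arrdc3 lay below -0.5 in 0 tissues with TMM factors, with DESeq2 size factors and at a threshold of 1, where Arrdc4 also lay above it in 0 tissues. Without the tissue block, the counts of called genes were 0 for NEDD4 family ligases (higher), glucose-sensing factors (higher and lower), α-arrestin cargo (higher) and inflammasome genes (lower), and all genes tested gave 0 higher and 1 lower. Over all genes, against 400 higher and 359 lower, library totals gave 313 and 638, DESeq2 gave 844 and 990, and leaving out a tissue gave 104 (without brown adipose) to 340 (without spleen) higher and 52 to 381 lower in the same fits. DESeq2 called 3 NEDD4 family ligases higher, 1 ChREBP target higher and 3 lower, and 1 inflammasome gene higher and 2 lower. With library totals, 2 ChREBP targets were called lower and 1 cargo gene higher, and with no filter on low counts 1 ChREBP target was called lower. With each tissue left out, called counts were 0 to 1 for glucose-sensing factors (lower), 0 to 1 for ChREBP targets (higher), 1 to 2 for cargo (higher) and 0 to 1 for inflammasome genes (lower). With library totals, the number of tissues with an edgeR adjusted p under 0.05 against the other 7 was 6 for Arrdc4. No such number is given for Txnip, Arrdc2 and Arrdc3, for which no test is read. The cause of these differences was not tested. By Spearman's rho, 0 to 2 of the 3 most alike genes of each member were shared. One pool of 3 mice per treatment limits every comparison: the spread between mice was not measured, and intervals cover counting error only.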

Other observations

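The exons of Txnip share 606 bases (19.4% of its counted length) with Gm15441, a gene on the opposite strand at chr3:96555765-96566801, which was singled out after its values were seen. Gm15441 had 12 counts in fed and 1528 in fasting liver (0.521 and 61.2 CPM, log2(FC) of 6.85, 95% counting interval 6.07 to 7.83), and 47 and 3272 counts in kidney (2.09 and 127 CPM, 5.92, 5.51 to 6.37). In the other 6 tissues it had between 8 and 74 counts in either library. It reached 25.4% of the counts of Txnip in fasting liver and 10.8% in fasting kidney, against 0.584% and 0.543% in the fed libraries. If the counting did not use strand, reads of the shared exons cannot be told apart between both genes. The part of Gm15441 in the Txnip values of liver and kidney was not tested.

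Polr3gl, the neighbour of Txnip with the most similar levels, was higher in the fasting library in 8 of 8 tissues. Its log2(FC) ran from 0.05 (-0.09 to 0.19) in muscle to 0.87 (0.74 to 1.01) in white adipose, with intervals that included 0 in muscle and liver. Muscle was also the tissue with the smallest change of Txnip.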
